A study of Drosophila melanogaster with 4 samples.

Results

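Long stretches without H3K79me1 domains were examined on 4 chromosome arms of Drosophila melanogaster. H3K79me1 is histone H3 with a single methyl group on lysine 79, a residue at the surface of the nucleosome core. The chromatin came from wild-type Oregon-R-modENCODE embryos at 14 to 16 h of development, and 2 ChIP libraries and 2 input libraries were made. All 4 libraries share this strain, genotype and stage, whole embryos were used, and the design holds no treated or mutant group. Each ChIP replicate had its own list of enriched regions, and the replicate set had another.

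A domain is here a run of sequence covered by the rows of either replicate list after merging. The stretches are the intervals of at least 50 kb between domains, on 2L from 1 to 21011544, 3L from 1 to 22543557, 3R from 2000001 to 27905053 and X from 1 to 20422827. These limits leave out 2 Mb at the centromere-side end of each arm. The rule found 320 stretches among 3725 uncovered intervals. The 1045 intervals of 5 to under 50 kb served as the background and are called shorter intervals.

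In flies H3K79 methylation is placed by the single DOT1-type methyltransferase, grappa, which acts on the nucleosome core rather than on a histone tail. The modification is known from the bodies of genes that are being transcribed. Large parts of the fly genome are known to lie in chromatin with few marks of transcription, and many genes there are used in particular tissues or at particular stages. Gene annotation of release 5, on which all positions here are given, was not used here. The stretches are therefore identified by arm, start and end, without genes or sequences.

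The stretches were chosen by where the lists have no row, so their number, length and lack of coverage describe the choice and were not tested. Only 2 libraries of a single group have lists, and the smallest p of an exact sign-flip test of 2 values is 0.5. The differences given below therefore carry no p. Values for the stretches are set beside those of the shorter intervals as descriptions. With no counts in the lists, sequencing depth is unknown. A stretch is sequence in which no region was called, and a weak signal below the authors' threshold cannot be told apart from none.

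The stretches were few, yet they held most of the sequence outside domains. They made up 8.59% of the uncovered intervals and 63.0% of the uncovered base pairs. Together they spanned 36.2 Mb, which is 40.2% of the 89.9 Mb analysed. By comparison, domains covered 36.2% of this sequence and the shorter intervals 19.8%. Intervals under 5 kb were the most numerous, with 2360, but held only 3.82% of the sequence.

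The lengths of the stretches ran from 50.2 to 371 kb, with a median of 95.0 kb and a middle range (25th to 75th percentile) of 64.5 to 145 kb. At least 100 kb was reached by 147 stretches, which held 67.0% of the sequence in stretches. A further step to 200 kb left 31, and 5 exceeded 300 kb. The 94 longest were enough to hold 50% of the sequence in stretches. The number of intervals showed no break at the threshold. The 3 shortest stretches measured 50.2, 50.3 and 50.4 kb, and the 3 intervals just below the threshold measured 50.0, 49.9 and 49.5 kb.

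**Figure D1:**
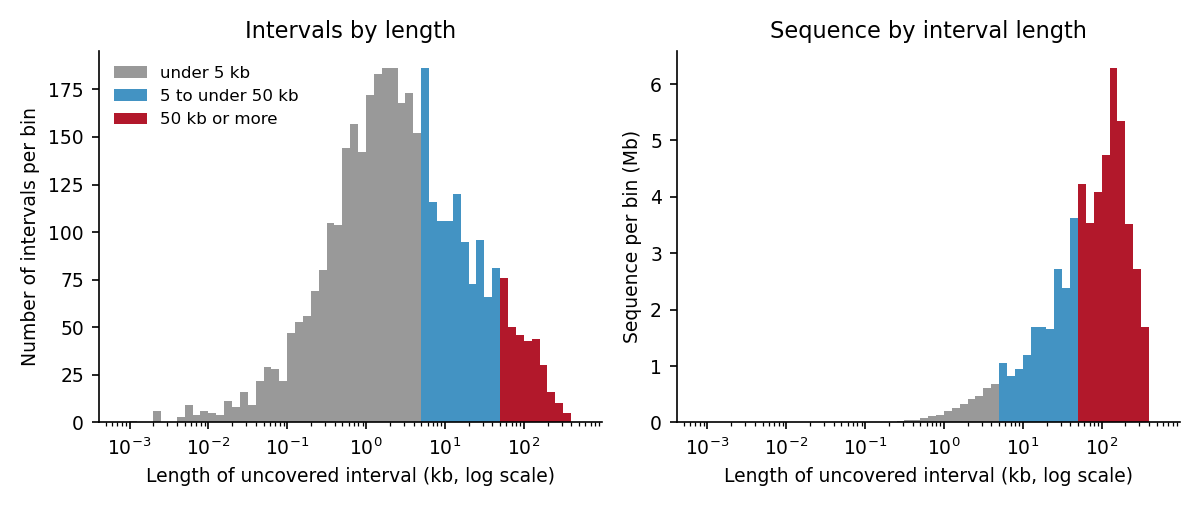
Number of uncovered intervals (left) and sequence they hold in Mb (right) by interval length in kb on a log scale, with 10 bins to each factor of 10. Intervals under 5 kb are grey, those of 5 to under 50 kb blue and the 320 stretches of 50 kb or more red. The counts peak in the short lengths, while most of the sequence lies in the red bins.

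Of the 10 longest stretches, 3 lay on 3L, 4 on 2L, 2 on X and 1 on 3R. In the merged replicates the longest ran on 3L from 18241183 to 18611709. It spanned 371 kb, with 375 kb free of domains in replicate 1 and 371 kb in replicate 2. Its neighbour in rank lay on the same arm from 13509869 to 13853721 (344 kb), with 344 kb in replicate 1 and 347 kb in replicate 2. The longest stretch of 3R ran from 23813270 to 24144352 (331 kb), with 332 and 331 kb in the 2 replicates. In these 3 places the replicates gave nearly equal lengths.

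In the merged replicates the longest stretch of 2L ran from 15916045 to 16246092 (330 kb), with 330 kb free in replicate 1 and 331 kb in replicate 2. On X the longest ran from 14153025 to 14474108 (321 kb), with 321 kb free in each replicate. This was the longest stretch into which no region of the replicate set reached either. Next came 3L from 4829513 to 5126992 (297 kb), where replicate 1 was free over 297 kb and replicate 2 over 298 kb.

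The remaining 4 of the 10 were a stretch on X and 3 on 2L. On X, from 7237809 to 7529408 (292 kb), the replicates differed most among these 10, since 341 kb was free in replicate 1 and 292 kb in replicate 2. The domain at the right end of that stretch was 1.36 kb wide, was found in replicate 2 alone and stood at the 4.49th percentile of its scores. The stretches on 2L ran from 14693451 to 14976029 (283 kb), from 16917060 to 17193523 (276 kb) and from 11516654 to 11792932 (276 kb). Their free lengths were 283, 285 and 277 kb in replicate 1 and 287, 277 and 276 kb in replicate 2.

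Each ChIP replicate alone gave nearly the same stretches. Replicate 1 had 334 uncovered intervals of at least 50 kb and replicate 2 had 333, and they took up 42.5% and 42.1% of the analysed sequence, or 42.3% ± 0.241 (SD, n = 2). Of this sequence, 94.7% in replicate 1 and 95.5% in replicate 2 lay in stretches that neither replicate broke. Only 17 and 15 of these intervals held no stretch of 50 kb once the other replicate was added. Whether the replicates were separate embryo collections is not in the labels, so the SD may be technical.

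Rows of the other replicate that fell wholly inside such an interval were narrow and low in score. Of the 334 intervals of replicate 1, 76 (22.8%) held a row of replicate 2. The median width of the 113 rows involved was 1562 bp, and their median score percentile was 13.5 in their own list. The reverse held for 59 of the 333 intervals of replicate 2 (17.7%), in which lay 73 rows of replicate 1, at a median percentile of 18.8 and 1655 bp wide at the median. The narrowest row in either list is 1301 bp wide. By the choice, rows inside such an interval overlap no row of the replicate that set it. Of all 3722 domains, 877 were found in a single replicate. Widths and scores of all single-replicate domains were not taken, nor was the share of shorter intervals holding such a row. Whether the low widths and scores are particular to these intervals is therefore not known.

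The extent of most stretches was close to that in each replicate alone. Over the 317 stretches with a domain at each end, replicate 1 alone was free over a median of 216 bp more than the stretch and replicate 2 alone over 116 bp more. In replicate 1, 72 stretches had exactly the length of the merged interval, and in replicate 2, 91 did. The free length in a single replicate exceeded 1.5 times the stretch in 6 cases for replicate 1 (1.89%) and 8 for replicate 2 (2.52%). In replicate 1 these included both parts of an interval of 202 kb on 2L, split by a domain of 1.83 kb found in replicate 2 alone. At shorter intervals the median extra length of replicate 1 was 294 bp and that of replicate 2 was 188 bp. There 16.8% in replicate 1 and 11.3% in replicate 2 exceeded 1.5 times, but a given extra length weighs more in a shorter interval.

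**Figure D2:**
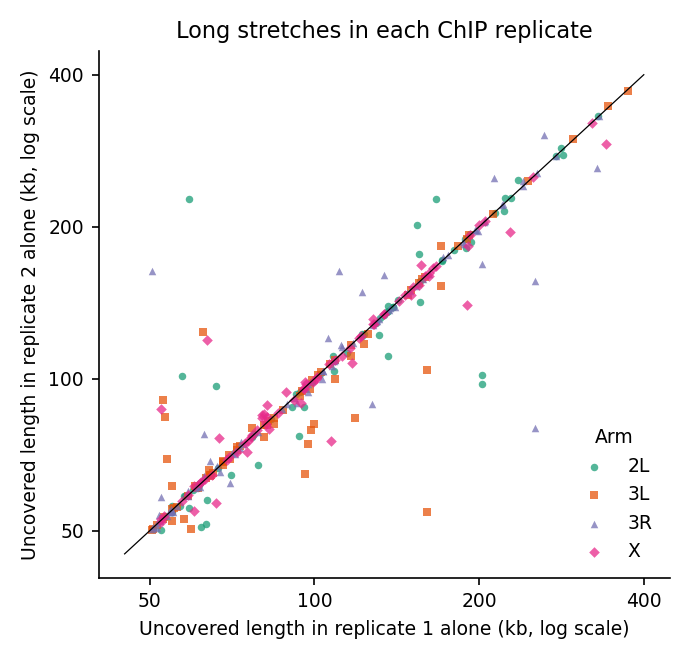
Length free of domains in replicate 1 alone (x axis) and in replicate 2 alone (y axis), in kb on log scales, for the interval that contains each of the 317 long stretches with a domain at each end. Symbols stand for the arm and the line marks equal lengths. Most stretches lie on the line, and those off it are free over a longer span in a single replicate.

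All 4 arms carried stretches at similar density. Arm 3R held 92, 3L held 79, X held 75 and 2L held 74, which is 3.55, 3.50, 3.67 and 3.52 per Mb. The share of sequence inside them was 42.9% on 2L, 42.0% on 3R, 40.8% on X and 35.2% on 3L. The lower share of 3L went with shorter stretches, with a median of 79.1 kb against 108 kb on 2L, 102 kb on 3R and 95.6 kb on X.

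The low place of 3L held in each replicate alone. There the share of 3L was 37.7% ± 0.641 (SD, n = 2), 38.2% in replicate 1 and 37.2% in replicate 2. The other arms had 44.1% ± 0.00506 (2L), 43.8% ± 0.663 (3R) and 43.6% ± 0.484 (X). These SDs describe how close the 2 lists were. They do not measure variation between or along arms, and the difference of 3L from the other arms was not tested. The mean share of X lay between those of the autosomal arms 3L and 3R. Domains covered 38.4% of 3L and 34.9% to 36.4% of the other arms.

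Along an arm the stretches were unevenly spread. When each arm was cut into 10 equal parts, the share inside stretches ranged on 2L from 18.6% in part 4 to 71.6% in part 8. On 3R it ranged from 24.1% in part 2 to 61.4% in part 1, on X from 29.9% in part 2 to 59.1% in part 3, and on 3L from 25.5% in part 2 to 45.6% in part 3. The lowest share of 3L, 3R and X was in part 2 and the highest share of 3L and X in part 3. Part 10 held 32.4% on 2L, 31.5% on 3L, 35.3% on 3R and 33.0% on X, below the share of the whole arm on each. Part 1 is on the centromere side of 3R and on the telomere side of the other arms.

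In windows of 1 Mb, which are smaller and more numerous than these parts, the range was wider. Only whole windows were used, so the last piece of each arm is left out. Across 88 windows the median share inside stretches was 40.1%, with a lowest value of 8.63% and a highest of 80.3%. The highest was on 2L from 15000001 to 16000000, where replicate 1 covered 9.47% and replicate 2 also 9.47%. Next was 3R from 2000001 to 3000000 with 71.7% inside stretches. The lowest share was on 3L from 8000001 to 9000000, where replicate 1 covered 48.3% and replicate 2 covered 49.7%. Stretches took up more than 60% in 12 windows and less than 20% in 7.

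Some parts of each arm held no stretch over a long way. The longest such span was 958 kb on 2L, from 7782461 to 8740626. On 3R it was 929 kb, from 25499113 to 26427666, on X 764 kb, from 19036470 to 19800133, and on 3L 741 kb, from 10975967 to 11716786. Every such span exceeded the longest stretch of its own arm.

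**Figure D3:**
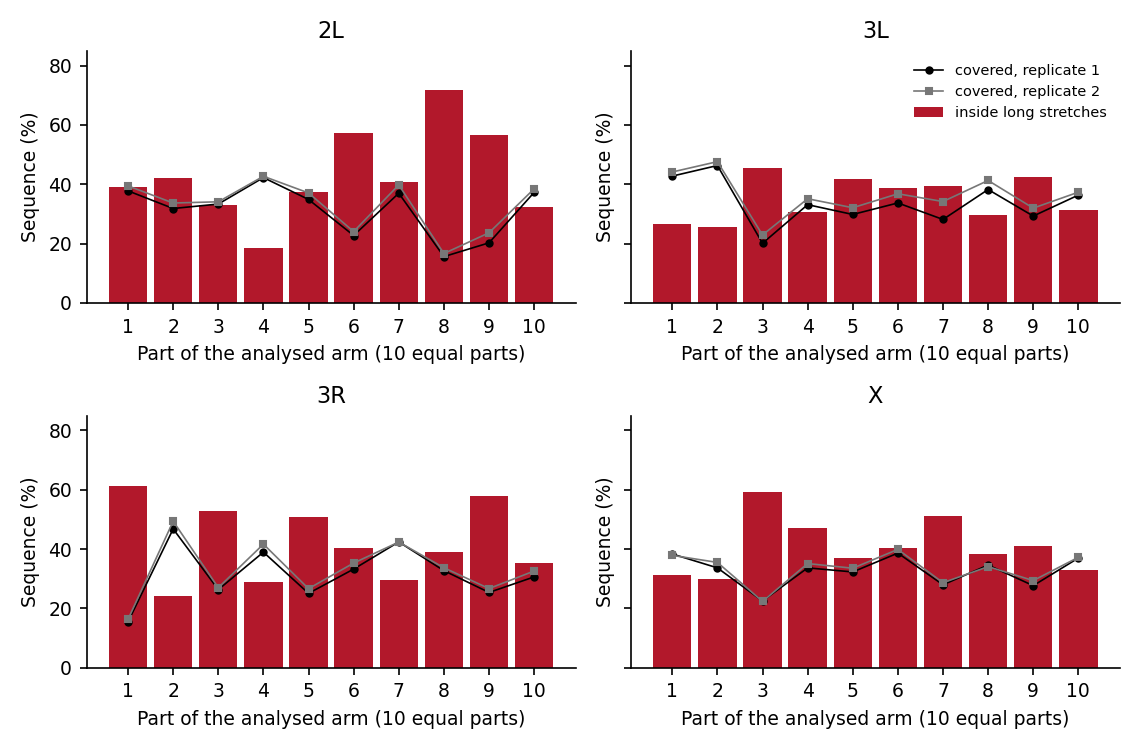
Share of sequence in percent (y axis) inside long stretches (bars) and covered by domains in replicate 1 (black circles) and replicate 2 (grey squares), in 10 equal parts of the analysed sequence of each of 4 arms (x axis). The bars run from 18.6% in part 4 of 2L to 71.6% in part 8, and the 2 replicates lie close together.

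Many stretches were near neighbours. Of the 320, 151 (47.2%) had another stretch within 50 kb, and the median distance to the nearest was 53.3 kb. In 69 stretches (21.6%) a single domain was all that lay between the stretch and the next. The same held between a shorter interval and a stretch in 189 of 1045 cases (18.1%). Of the shorter intervals, 503 of 1045 (48.1%) had a stretch within 50 kb and the median distance was 53.6 kb. The share of stretches with another within 50 kb was therefore close to that of shorter intervals in the merged lists. Under other settings the share of stretches ran from 21.8% to 66.2%. That of shorter intervals was not taken there, so whether the shares stay close is not known.

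When stretches at most 50 kb apart were joined, they formed 229 groups. Of these, 169 were single stretches, 41 were pairs and 19 held 3 or more, with 69 stretches among them. The largest group lay on 2L from 15118529 to 16246092, with 6 stretches over 1128 kb. Stretches took up 93.0% of it, and 12 domains with a median width of 5.03 kb lay between them. Replicate 1 covered 5.20% of this group and replicate 2 covered 5.21%.

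The groups next in size had 5 stretches each and lay on 3R. That from 23813270 to 24632929 spanned 820 kb, of which 91.4% was in stretches, with 7.63% covered in replicate 1 and 7.53% in replicate 2. That from 26427667 to 27133521 spanned 706 kb, with 85.4% in stretches and 9.90% and 11.4% covered. Between the stretches lay 7 domains in the first group and 8 in the second, and 3 replicate-set regions lay wholly inside stretches of the second.

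The domains at the ends of stretches were ordinary in width. A domain can border a stretch on each side, and 601 domains of 3722 did so on at least 1 side. Their median width was 4.87 kb, with a middle range of 2.59 to 10.2 kb. All domains together had a median of 4.95 kb (2.34 to 10.7 kb) and those at shorter intervals 5.02 kb (2.31 to 10.8 kb). Domains of at least 10 kb made up 26.0% of those at stretches and 26.7% of all. The widest domain at a stretch spanned 90.2 kb and the widest of all 128 kb.

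Most border domains were found in both replicates. Of the 637 ends of stretches with a domain, 522 (81.9%) had rows of both replicates in it, against 1570 of 2086 ends of shorter intervals (75.3%). The shares for the domains themselves, each taken once, were 81.5% and 75.6%, and 76.4% for all domains. No test of this difference was made, since neighbouring intervals share domains. A domain found in a single replicate also parts intervals by the rule, so the difference is not independent of the choice. At least 1 end of 106 of the 320 stretches rested on a domain found in a single replicate, beside 429 of the 1045 shorter intervals.

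Scores of the rows at the ends were a little above the middle of each list. The median percentile was 61.2 in replicate 1 (middle range 37.1 to 80.1) and 57.5 in replicate 2 (33.0 to 77.7). At the ends of shorter intervals the medians were 56.8 and 53.5. The 25th percentiles there were 29.4 and 26.9. The score is the authors' own value, whose scale the headers do not name, and it was used only to rank rows within a list.

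The 2 replicates placed the ends of stretches at close positions. Where both had a row in the border domain, the edges were a median of 155 bp apart, with a middle range of 70.3 to 407 bp. In 424 of 522 ends (81.2%) the distance was at most 500 bp, and the largest was 3.46 kb. No end had the same base in both. Replicate 1 reached further into the stretch at 250 ends and replicate 2 at 272. At shorter intervals the median distance was 208 bp and 75.8% were within 500 bp.

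Outside a stretch, coverage fell from the border outward towards the level of the whole arms. In the first 2 kb, domains covered 80.6% in replicate 1 and 83.7% in replicate 2. From 10 to 20 kb out they covered 47.2% and 49.9%, from 20 to 50 kb 39.6% and 41.9%, and from 50 to 100 kb 35.3% and 37.3%. The 4 arms as analysed were covered to 32.4% and 34.0%. The first bin begins at a domain by the rule, so its height is no result. The surroundings of stretches were covered about as much as those of shorter intervals, at which 47.5% and 50.1% was covered from 10 to 20 kb out, and 35.3% and 37.2% from 50 to 100 kb out.

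**Figure D4:**
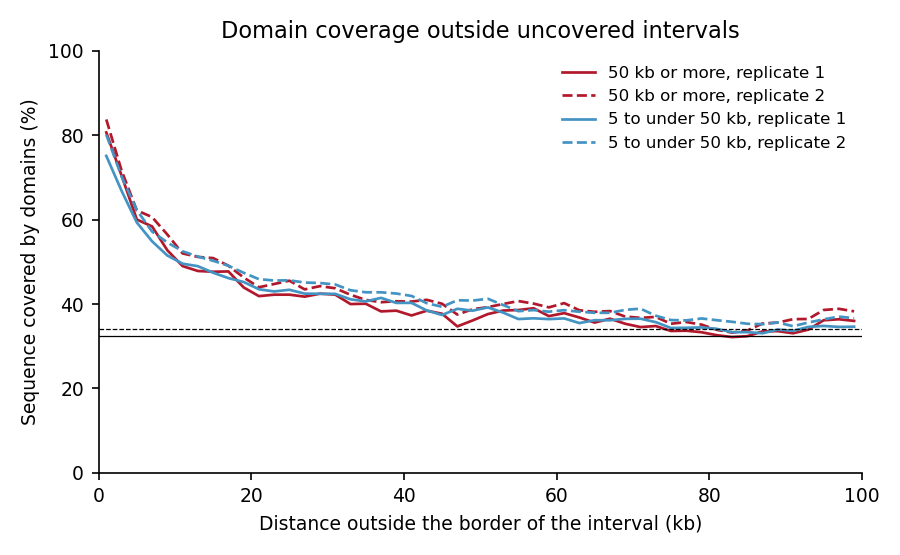
Percent of sequence covered by domains (y axis) in bins of 2 kb by distance in kb outside the border (x axis), for long stretches (red, 637 borders) and shorter intervals of 5 to under 50 kb (blue, 2086 borders). Solid lines are replicate 1 and dashed lines replicate 2, and thin black lines mark coverage of the 4 arms, 32.4% and 34.0%. Red and blue lines run close together from 10 kb outward.

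The list of the replicate set was then used to see what it places inside the stretches. It was made from the same libraries, so it is not independent of the choice. A replicate-set region reached into 298 of the 320 stretches (93.1%) by at least 1 bp, beside 89.8% of the shorter intervals. Most of these contacts were small shifts of an edge. At 400 of 637 ends the replicate-set region ran into the stretch, by a median of 64 bp (middle range 29.0 to 175 bp) and by at most 2285 bp. The 22 stretches that no region touched were 52.3 to 321 kb long.

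Replicate-set regions covered very little of the stretches. They took up 0.713% of the sequence in stretches, 4.64% of that in shorter intervals and 38.0% of the 4 arms. With these regions removed, 299 of the 320 stretches still held an uncovered interval of at least 50 kb, and 21 did not. No replicate-set region spanned a whole stretch. By arm the covered share was 0.807% on 3L, 0.780% on X, 0.740% on 2L and 0.570% on 3R.

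Regions that lay wholly inside a stretch, and so had no row in either replicate, numbered 134 in 88 stretches. That is 27.5% of the stretches, beside 24.7% of the shorter intervals, although a stretch offers far more room. Per Mb there were 3.71 in stretches and 19.0 in shorter intervals. Single regions were found in 56 stretches, pairs in 24 and 3 or more in 8. They were narrow, with a median width of 1199 bp, and 81 of them (60.4%) were narrower than the narrowest row of either replicate, 1301 bp. The 338 regions wholly inside shorter intervals were much alike, with a median width of 1247 bp and 187 (55.3%) narrower than 1301 bp. The narrowest row of the replicate set is 1001 bp wide.

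The inside regions also ranked low, with a median score percentile of 18.6 in the replicate-set list, and 18.2 in shorter intervals. Only 2 of the 134 stood above the 75th percentile, beside 4 of the 338 in shorter intervals. These lay on 2L from 4182738 to 4183738 (the 99.99th percentile, 1.85 kb from the border) and on 3L from 88818 to 89820 (the 99.8th percentile, 0.118 kb from the border). Both were chosen after their values were seen, and both are close to the minimum width of the list. The other 132 reached the 43.7th percentile at most.

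Replicate-set regions were sparser in the longer stretches and in their deeper parts. They covered 1.17% of stretches of 50 to 75 kb, 1.14% of those of 75 to 100 kb, 0.688% of those of 100 to 150 kb, 0.408% of those of 150 to 200 kb and 0.354% of the 31 stretches of 200 kb or more. Wholly inside regions numbered 5.77, 5.79, 3.48, 2.31 and 2.14 per Mb in the same order. The edge shifts weigh more in a shorter stretch, and a longer stretch holds more sequence far from its borders. Whether length matters apart from distance to the border was not tested.

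The distance of an inside region's midpoint from the nearest border was taken in the 317 stretches with a domain at each end, which hold 132 of the regions. Their density was highest within 5 kb, at 16.1 per Mb. From 5 to 10 kb there were 5.68 per Mb, from 10 to 25 kb 3.05, from 25 to 50 kb 2.38 and beyond 50 kb 0.951. The bins from 5 to 10 kb and beyond 50 kb hold only 18 and 9 regions, and without them the densities were still lower with each step. In stretches of at least 100 kb alone the densities were 11.7, 5.52, 2.76, 2.62 and 0.951 per Mb, from 17, 8, 12, 19 and 9 regions. Shorter intervals had 27.8 per Mb within 5 kb, 13.7 from 5 to 10 kb and 5.19 from 10 to 25 kb. At each of these distances the density in stretches was below that in shorter intervals. Both classes were set by rows of the same libraries that gave the replicate set. This difference is therefore not independent of the choice, and it was not tested.

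**Figure D5:**
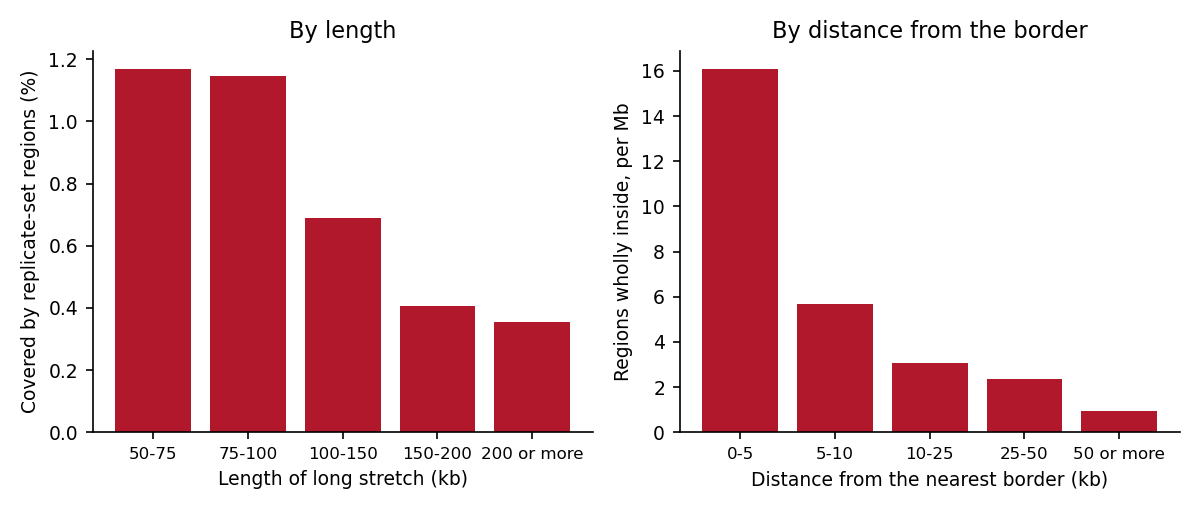
Left, percent of sequence covered by replicate-set regions (y axis) in long stretches grouped by length in kb (x axis). Right, number of replicate-set regions wholly inside the 317 long stretches with a domain at each end, per Mb (y axis) by distance in kb of their midpoint from the nearest border (x axis). Bars fall from 1.17% to 0.354% and from 16.1 to 0.951 per Mb.

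The 3 stretches with most replicate-set sequence were on 2L, X and 3R. On 2L, from 8840202 to 8942050 (102 kb), 7 regions lay wholly inside and 10.7 kb (10.5%) was covered. This stretch is part of the 202-kb interval that replicate 1 left free, and both its border domains are under 2 kb wide. The widest inside region of any stretch, 3.04 kb from 8854096 to 8857136, lay in it. On X, from 6432888 to 6484759 (51.9 kb), 3 regions lay inside and 6.02 kb (11.6%) was covered. On 3R, from 27288967 to 27397504 (109 kb), 4 lay inside and 5.90 kb (5.44%) was covered.

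Among the 10 longest stretches the replicate set added little. The share covered was 0% in the longest stretch of X and at most 0.0897% in 6 others. It was 0.725% in the longest stretch of all, with 2 regions inside, 1.49% in the longest of 2L, with 4, and 1.51% on 2L from 14693451 to 14976029, with 2. In the replicate-set list the length of each of the 10 was between 0.769 and 1.05 times that in the merged replicates. The order of the 10 depended on the list. In the replicate-set list the longest stretch of all measured 338 kb, below the 344 kb of the next in rank, and the longest of 2L measured 254 kb, below the 274, 276 and 276 kb of the other 3 named on that arm. With the 50% of rows of highest score, the longest of 2L measured 475 kb, the one on 2L from 16917060 to 17193523 measured 452 kb (1.63 times its length), and the longest of all 375 kb.

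A total of 3 stretches ended at an arm end or at a limit of the analysed part. On 3L the stretch from 1 to 89938 began at the first base of the arm. The one on 3L from 22427128 to 22543557 (116 kb) went on beyond the limit to 22707066, 280 kb in all. On 3R the one from 2000001 to 2144863 (145 kb) began before the limit, at 1829085, 316 kb in all. Their lengths here are thus those inside the limits.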

How the data were processed

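Positions are on FlyBase release 5, per the file headers, and the aligner was Bowtie 0.12.7 according to the submitters' processing notes. Neither the region caller nor its threshold nor its use of the inputs is given in the sources used here. The score is the authors' deposited value per region, on a scale the headers do not name. Starts and ends were read as 1-based and inclusive. Rows of both ChIP lists were merged, and uncovered intervals were found inside the limits with Python 3.11.15 and numpy 2.4.6, after the functions had been tested on simulated lists. Lengths include bases that cannot be mapped uniquely. A percentile is the rank of a row's score in its own list, and ties share the mean rank. Depth per sample is unknown, so no counting error is given. The members, lists and settings were chosen with earlier results of these data known. Regions named are the 10 longest stretches, the longest of each arm, the 3 with most replicate-set sequence, the 3 largest groups and the 3 lengths on each side of the threshold. Windows, spans without stretches and other places were chosen after their values were seen.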

Additional observations from a re-analysis of the deposited data

How the results depend on the processing

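The number of stretches stayed within 1.5 times 320 in all settings except other length thresholds, which gave 494 at 30 kb and 147 at 100 kb. Their share of the sequence, 40.2%, was 47.8% and 26.9% at these thresholds, the median length 62.7 and 151 kb, the share with a near neighbour 66.0% and 21.8%, the share reached by the replicate set 91.7% and 92.5%, and the border domains had a median of 5.06 kb at 100 kb. With the 50% of rows of highest score these values were 53.8%, 104 kb, 66.2%, 98.7% and 8.94 kb. Border widths in this section count a domain once for each stretch end, which gave 4.82 kb in the main setting. Rows of at least 2000 bp gave 43.9% of the sequence, 52.2% with a neighbour, 96.5% reached and 6.22 kb. Coverage in both replicates gave 45.2%, 56.2%, 100% and 4.04 kb. The replicate-set list gave 38.0% of the sequence, a median of 92.6 kb, 44.8% with a neighbour and 4.58 kb. Without 1 replicate the number was 333 to 334, the share 42.1% to 42.5%, the median 94.3 to 95.8 kb, the neighbours 50.0% to 52.6%, those reached 98.2% and the border width 4.34 to 4.38 kb. Added after seeing the data, domains found in both replicates gave 44.7%, 54.4%, 97.2% and 6.18 kb, and leaving out the 3 stretches at limits gave 39.8% and 93.4% reached. Of the sequence in stretches, 93.8% also lay in stretches of the replicate-set list. No paired analysis was possible because the inputs have no list. Unknown depth limits how firmly a stretch can be called free of the mark.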

Other observations

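A set of 36 domains stood alone with a long stretch on each side, 11 on 2L, 11 on 3R, 9 on 3L and 5 on X. Their median width was 4.26 kb, against 4.51 kb for the 321 domains between 2 shorter intervals. Rows of both replicates were found in 32 of the 36 (88.9%) and in 235 of the 321 (73.2%). Score percentiles were taken from the rightmost row of a replicate in a domain, where it had one. Among the 36 the median was 56.7 in replicate 1 (34 domains) and 59.7 in replicate 2 (34 domains). Among the 321 it was 56.4 (274 domains) and 54.0 (282 domains). No test was made of these differences, and the support by both replicates is not independent of how the intervals were chosen.

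The widest of the 36 lay on 2L from 20057988 to 20097689 (39.7 kb), between stretches of 66.0 and 215 kb. The narrowest lay on 2L from 15331161 to 15332499 (1339 bp), between stretches of 59.1 and 167 kb, and was found in replicate 1 alone. On 3R a domain of 13.9 kb from 2472110 to 2486046 stood between stretches of 187 and 149 kb, at the 94.6th percentile in replicate 1 and the 91.4th in replicate 2. These 3 were chosen after their values were seen.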
